A study of Mus musculus with 16 samples.

Results

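H3K4me2, histone H3 carrying methyl groups on lysine 4 in the dimethyl form, was mapped by ChIP-seq in 1 Arid1a knockout (KO) library and 1 wild-type (WT) library of mouse liver 40 h after partial hepatectomy. All H3K4me2 regions that the authors called on the 19 autosomes were taken, which gave 71609 regions in KO liver and 65454 in WT liver. Together these 137063 regions were part of the 261666 peaks and regions in all 8 lists of the series. KO mice were Arid1a Fl/Fl with Alb-cre, in which the albumin promoter drives Cre in hepatocytes. Which other liver cells keep Arid1a was not checked. WT mice were Arid1a Fl/Fl without Cre, so both genotypes carried the floxed alleles, on a C57/B6 and 129 mix, at postnatal day 90. The labels describe liver that was frozen, minced, crosslinked and dounced before hepatocytes were taken for ChIP, and they give no sex. The same series holds H3K27ac lists (1 library per genotype) and E2f4 lists (2 per genotype). With 1 H3K4me2 library per genotype no difference has a replicate check, no test was made, and each difference is one between these libraries.

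H3K4me2 is laid down by the Kmt2 and Setd1 methyltransferases and removed by the Kdm1a and Kdm5 demethylases. It lies on both sides of active and poised promoters, where the trimethyl form is also found, and at enhancers, where the trimethyl form is scarce. Arid1a is the DNA-binding subunit of the BAF form of the SWI/SNF chromatin remodeller, which moves and evicts nucleosomes at both kinds of site. In hepatocytes, enhancers far from genes carry much of the mark that distinguishes the cell type, while the promoters of housekeeping genes carry it in most tissues.

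The promoters printed next show the kinds of gene end at which the libraries differed or matched. Each is 300 bases of RefSeq sequence on GRCm38.p6 (the coordinates of mm10), from 250 before to 50 after an annotated start, on the gene's strand, with CG dinucleotides in capitals. Olig2 (chr16:91225300-91225599, plus), Timd4 (chr11:46810549-46810848, plus) and Stab1 (chr14:31168592-31168891, minus) lay wholly inside H3K4me2 regions in KO liver and outside them in WT liver. Orm3 (chr4:63355908-63356207, plus) and Il21r (chr7:125603179-125603478, plus) lay outside them in KO liver and wholly inside them in WT liver. Alb (chr5:90460620-90460919, plus) and the outer start of Arid1a (chr4:133756720-133757019, minus) lay wholly inside them in both. Within 1000 bp of the gene end, WT liver still had 816 bp covered at Stab1, but 0 bp at Olig2 and Timd4.
Olig2: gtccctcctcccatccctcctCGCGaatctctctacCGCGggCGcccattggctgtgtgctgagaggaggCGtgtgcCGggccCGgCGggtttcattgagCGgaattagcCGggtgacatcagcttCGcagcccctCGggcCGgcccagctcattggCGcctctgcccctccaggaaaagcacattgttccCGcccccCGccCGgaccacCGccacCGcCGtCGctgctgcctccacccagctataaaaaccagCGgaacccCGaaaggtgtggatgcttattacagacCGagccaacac
Timd4: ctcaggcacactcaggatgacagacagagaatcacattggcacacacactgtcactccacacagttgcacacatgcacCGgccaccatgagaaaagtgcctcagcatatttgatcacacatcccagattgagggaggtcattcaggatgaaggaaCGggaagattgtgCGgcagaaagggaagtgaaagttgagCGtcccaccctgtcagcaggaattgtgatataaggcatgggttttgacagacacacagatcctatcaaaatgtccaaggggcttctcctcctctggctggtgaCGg
Stab1: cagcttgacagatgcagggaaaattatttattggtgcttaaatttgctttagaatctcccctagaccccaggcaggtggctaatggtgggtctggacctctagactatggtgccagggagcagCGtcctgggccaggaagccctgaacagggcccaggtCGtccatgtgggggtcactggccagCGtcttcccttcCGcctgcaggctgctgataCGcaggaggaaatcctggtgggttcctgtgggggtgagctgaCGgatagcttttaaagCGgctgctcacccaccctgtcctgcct
Orm3: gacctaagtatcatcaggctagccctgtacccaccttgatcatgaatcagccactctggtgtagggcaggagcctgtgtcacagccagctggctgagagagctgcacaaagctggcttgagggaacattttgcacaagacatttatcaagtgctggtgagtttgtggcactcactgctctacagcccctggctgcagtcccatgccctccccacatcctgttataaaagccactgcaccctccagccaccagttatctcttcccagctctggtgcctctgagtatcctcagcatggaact
Il21r: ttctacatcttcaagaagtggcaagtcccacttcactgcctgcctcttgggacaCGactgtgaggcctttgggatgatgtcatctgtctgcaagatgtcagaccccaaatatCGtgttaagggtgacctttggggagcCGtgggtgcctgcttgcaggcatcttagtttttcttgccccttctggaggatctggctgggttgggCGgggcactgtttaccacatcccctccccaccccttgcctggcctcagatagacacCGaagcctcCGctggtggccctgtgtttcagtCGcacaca
Alb: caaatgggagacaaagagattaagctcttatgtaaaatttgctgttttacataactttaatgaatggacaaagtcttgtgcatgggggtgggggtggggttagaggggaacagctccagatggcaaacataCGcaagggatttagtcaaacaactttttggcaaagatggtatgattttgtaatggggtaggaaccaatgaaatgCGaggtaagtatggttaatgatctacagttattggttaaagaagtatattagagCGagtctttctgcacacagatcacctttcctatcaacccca
Arid1a: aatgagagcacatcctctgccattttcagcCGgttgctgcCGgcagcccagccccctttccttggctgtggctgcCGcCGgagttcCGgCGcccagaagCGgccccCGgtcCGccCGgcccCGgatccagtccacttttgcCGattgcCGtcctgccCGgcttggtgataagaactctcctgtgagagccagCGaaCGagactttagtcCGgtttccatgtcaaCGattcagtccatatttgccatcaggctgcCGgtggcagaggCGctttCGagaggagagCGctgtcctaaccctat

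Olig2 held 25 CG dinucleotides in its window, Arid1a 22, Stab1 7, Il21r 7, Timd4 5, Alb 3 and Orm3 0. Over all 31396 autosomal windows of this length the median was 7, the quartiles were 3 and 21, and 94.8% held at least 1 CG, read on either strand. Windows wholly covered in both libraries numbered 13812 and windows covered in neither 14529. Only 323 were wholly covered in KO liver with no covered base in WT liver, and 243 had no covered base in KO liver and were wholly covered in WT liver. Of the 87 genes named by the rule given under processing, 66 had a window in the table.

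Hepatocyte genes carried the mark in both libraries. All 24 genes of a list of hepatocyte transcription factors and secreted proteins had a region within 1000 bp of the gene end in KO liver and in WT liver. Within 5000 bp of that end, Alb, which encodes the main plasma protein made by hepatocytes, had 7414 bp covered in KO liver and 7395 bp in WT liver. Markers of other cells were also present: 22 of 22 endothelial genes in KO liver and 21 in WT liver had a region within 1000 bp, as had 8 and 15 of 22 lymphocyte genes and 16 and 14 of 19 macrophage genes. The cholangiocyte markers Krt19, Krt7 and Cftr and the progenitor marker Dlk1 had none within 5000 bp in either library.

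Regions in KO liver covered 109.6 Mb and those in WT liver 102.07 Mb, of which 81.3 Mb was common to both. The common part was 74.1% of the KO length and 79.6% of the WT length. KO regions had a median width of 879 bp and WT regions 941 bp, with quartiles of 452 and 1872 bp in KO liver and 500 and 1925 bp in WT liver. The lists hold no read counts, so sequencing depth is unknown, and the intervals given here cover counting error over regions only. Each region carries the authors' own −log10 q-value, with a median of 2.89 in KO liver and 3.31 in WT liver and a lowest value of 1.00 in both. Regions with a value under 2 made up 29.8% of the KO list and 24.4% of the WT list. The KO list was therefore longer and held more regions near the calling threshold.

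At gene ends nearly all regions were common to both genotypes. A region was counted there when it came within 1000 bp of either outer end of 20661 protein-coding autosomal genes, which was true of 14396 KO regions (20.1%) and 14031 WT regions (21.4%). These held 41.8% of the covered length in KO liver and 42.5% in WT liver. Of them, 93.1% in KO liver (95% Clopper-Pearson interval 92.7 to 93.5) and 95.7% in WT liver (95.3 to 96.0) overlapped a region of the other genotype by at least 1 bp. Their median width was 2501.5 bp in KO liver and 2422 bp in WT liver. The 996 KO regions and 605 WT regions at gene ends without a partner were narrow, with median widths of 445 and 498 bp, against 2663 bp in KO liver and 2513.5 bp in WT liver for those with a partner.

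Away from gene ends fewer regions were shared. There were 57213 such regions in KO liver, of which 66.4% (66.1 to 66.8) overlapped a WT region, and 51423 in WT liver, of which 75.2% (74.9 to 75.6) overlapped a KO region. Median widths were 721 bp in KO liver and 768 bp in WT liver. Without a partner were 19198 KO regions with a median width of 407 bp and 12732 WT regions with 438 bp, and 64.0% of the KO ones and 57.1% of the WT ones had a −log10 q-value under 2. Inside genes 65.3% of KO and 74.7% of WT regions were shared, outside genes within 10000 bp of one 70.1% and 77.9%, and farther out 67.3% and 75.2%. The KO share was below the WT share on 19 of 19 autosomes, both at gene ends and away from them. That order depends on the threshold: with both lists limited to a −log10 q-value of at least 5, the shares away from gene ends were 75.3% in KO liver and 72.2% in WT liver. With lists of equal length the order held and the gap narrowed, to 71.0% in KO liver and 72.5% in WT liver.

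Wider regions were shared more often in both libraries. Away from gene ends, regions under 500 bp were shared in 38.8% of cases in KO liver and 52.2% in WT liver, and regions from 2000 to under 5000 bp in 98.5% in each. At gene ends the shares for the same widths were 44.7% in KO liver and 66.3% in WT liver, then 99.9% and 99.6%. All 2471 KO regions of at least 5000 bp at gene ends and all 1142 away from them overlapped a WT region. Between 500 and 1000 bp, 78.1% of KO regions and 85.9% of WT regions at gene ends were shared, against 66.4% and 74.6% away from them, and between 1000 and 2000 bp 96.9% and 97.7% against 88.7% and 91.4%. Regions at gene ends were thus shared more often than others of like width below 2000 bp.

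**Figure D1:**
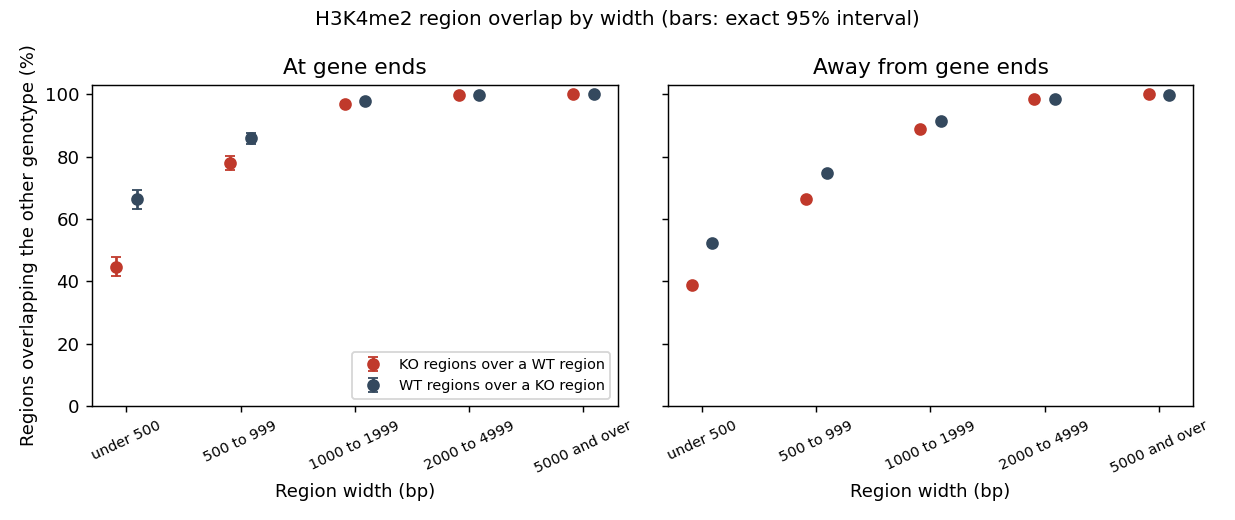
Percent of H3K4me2 regions that overlap a region of the other genotype by at least 1 bp (vertical axis) by region width in bp (horizontal axis), at gene ends and away from them, for KO and WT liver, with 95% Clopper-Pearson intervals. Shares climb from 38.8% (KO) and 52.2% (WT) under 500 bp away from gene ends to 100% (KO) and 99.9% (WT) at 5000 bp and more.

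Where a KO region and a WT region overlapped each other and nothing else, their widths were close. At gene ends 11574 such pairs had medians of 2508 bp in KO liver and 2379 bp in WT liver, and the median log2 ratio of KO over WT width was 0.059 (95% interval of the median over pairs, 0.052 to 0.065). KO regions were at least 2-fold wider in 400 pairs (3.46%) and at least 2-fold narrower in 223 (1.93%). Away from gene ends 33541 pairs had medians of 957 bp in KO liver and 915 bp in WT liver and a median log2 ratio of 0.055, with 4119 pairs (12.3%) at least 2-fold wider and 3363 at least 2-fold narrower in KO liver. The quartiles of the log2 ratio were −0.11 and 0.27 at gene ends and −0.38 and 0.52 elsewhere, so widths differed more between libraries away from gene ends. Pearson's r of the log2 widths was 0.90 over the pairs at gene ends and 0.68 over those elsewhere, as a description of pairs that come from 2 libraries.

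**Figure D2:**
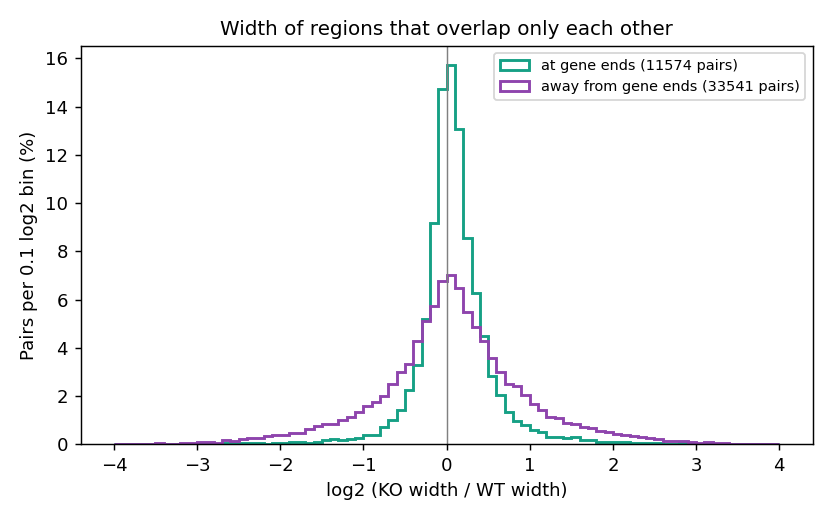
Histogram of the log2 ratio of KO over WT width (horizontal axis) for regions that overlap only each other, as percent of pairs in each bin (vertical axis), at gene ends (11574 pairs) and away from them (33541 pairs). Pairs at gene ends lie closer to equal width (0), with 3.46% at least 2-fold wider and 1.93% at least 2-fold narrower in KO liver, against 12.3% wider in KO liver away from gene ends.

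Around annotated start sites the profile of the mark had the same form in both genotypes. For the 16456 autosomal genes with a start site in the RefSeq promoter table, the start itself was covered in 63.7% of genes in KO liver and 62.6% in WT liver. At 2000 bp downstream the shares were 31.4% in KO liver and 28.8% in WT liver, and at 2000 bp upstream 12.8% and 11.8%. The 3′ ends were covered in 7.97% of genes in KO liver and 7.18% in WT liver. Regions within 1000 bp of a start site were shared in 96.2% of cases in KO liver and 97.7% in WT liver, and regions at an outer end with no start site nearby in 85.2% and 90.6%.

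**Figure D3:**
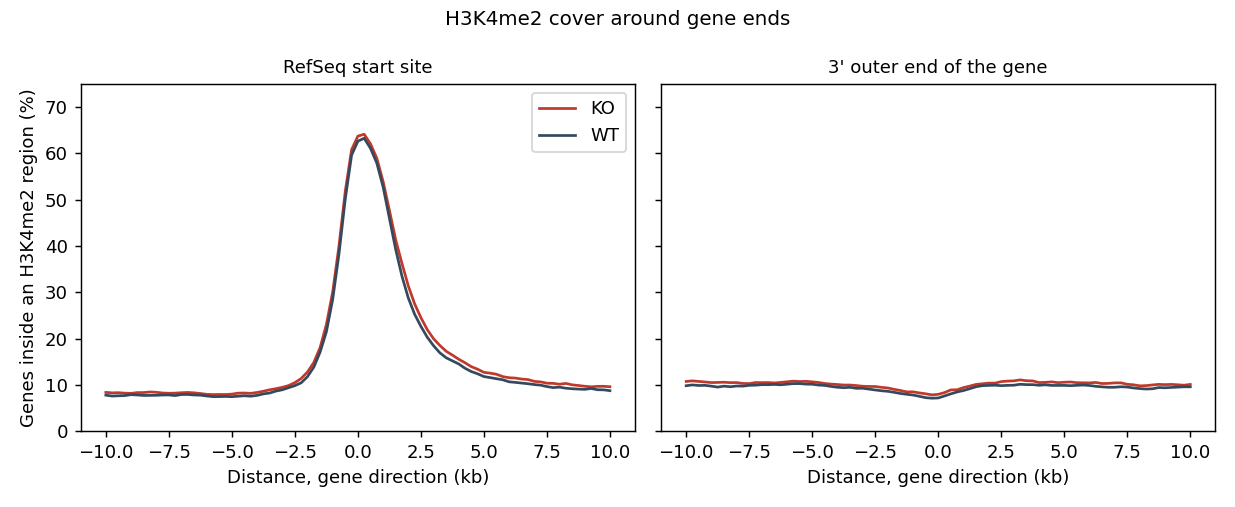
Percent of 16456 genes whose position is covered by an H3K4me2 region (vertical axis) by distance in kb along the gene's direction from the start site and from the 3′ end (horizontal axis), for KO and WT liver. Coverage is 63.7% in KO liver and 62.6% in WT liver at the start, 64.1% and 63.2% at 250 bp downstream, and 7.97% and 7.18% at the 3′ end.

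Among regions at gene ends called in both libraries, the broadest were ranked by the lower of the KO and WT widths, so that presence in both was set by the choice. Myh9, which encodes a non-muscle myosin heavy chain, had a region of 30559 bp in KO liver and 32400 bp in WT liver on chromosome 15. Rxra, the shared partner of many nuclear receptors, had 30400 bp in KO liver and 34352 bp in WT liver. Dgat2, which makes triglyceride, had 28382 bp in KO liver and 28219 bp in WT liver, and Frmd8, Cyb5a and St3gal4 had between 25129 and 27753 bp in KO liver and between 25952 and 29101 bp in WT liver. At Arid1a itself (chromosome 4, 133679008 to 133756769), 6374 bp in KO liver and 6378 bp in WT liver were covered within 5000 bp of the marked end. Over the whole Arid1a gene, 10 regions in KO liver covered 28949 bp and 9 in WT liver covered 20155 bp, and 7 of the KO regions and all 9 WT regions overlapped the other list. A histone mark does not report the deleted exons, so the deletion itself is not checked here.

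For each gene the end with more mark was used (89.6% of 12014 genes with a decided end and a known strand had it on the 5′ side). A region within 1000 bp of that end was called in KO liver for 14292 genes and in WT liver for 14069, with 13770 in common. In KO liver only it was called at 522 genes, 3.58% of the 14591 genes marked in either, and in WT liver only at 299, 2.05%. Of these, 241 of the 522 had WT mark within 5000 bp and 149 of the 299 had KO mark within 5000 bp. Over 16100 genes with any covered base within 5000 bp in either library, 1887 (11.7%) were at least 1000 bp longer in KO liver and 918 (5.7%) at least 1000 bp shorter. The median difference, KO minus WT, was 129 bp.

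Among genes covered in KO liver and not in WT liver within 5000 bp, Lexm (chromosome 4, 106590908 to 106617397) had the most, 3551 bp against 0, at its 3′ end. Olig2 (chromosome 16, 91225550 to 91228677), a basic helix-loop-helix factor of oligodendrocytes, had 3403 bp in KO liver in 3 regions of 1358, 1264 and 781 bp, and 0 in WT liver. The Olig2 regions had −log10 q-values of 2.76 to 4.67. Timd4 and Marco, receptors of resident macrophages, had 2256 and 2092 bp in KO liver and 0 in WT liver. The 3 Timd4 regions had −log10 q-values of 1.11, 1.75 and 1.39, close to the lowest in the list, and the single Marco region 1.46. Sh2d4b, Serpina3b, Kcne4 and Ghrl, which encodes ghrelin, had between 2031 and 2475 bp in KO liver and 0 in WT liver.

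Among genes covered in WT liver alone, Orm3, an orosomucoid of the acute-phase family, had 0 bp in KO liver and 3724 bp in WT liver. One of its WT regions was 2992 bp wide with a −log10 q-value of 8.86. Sult3a2 and Sult3a1, sulfotransferases on chromosome 10, had 0 bp in KO liver and 4829 and 4046 bp in WT liver. Reads of Sult3a1 and Sult3a2 may be shared, since these genes have near-identical copies, so their values are uncertain. The lymphocyte genes Cd79b, Cd3g, Cd2 and Gimap3 had 0 bp in KO liver and between 3493 and 4503 bp in WT liver, and Zfp831 had 0 bp in KO liver and 3183 bp in WT liver.

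Genes covered in both libraries differed in covered length in both directions. Pdgfrb, a receptor of stellate cells and pericytes on chromosome 18, had 6589 bp in KO liver and 1806 bp in WT liver, and its neighbour Gm52351 shares those regions. Hilpda, a lipid droplet protein, had 8565 bp in KO liver in 1 region and 3825 bp in WT liver in 1 region. Cep170 had 9868 bp in KO liver and 5270 bp in WT liver, Adamts13, which cleaves von Willebrand factor, 6945 and 2514 bp, and P2ry13, a receptor for ADP, 6574 and 2180 bp. On the other side, Ppp1ca, a catalytic subunit of protein phosphatase 1, had 2645 bp in KO liver and 9480 bp in WT liver, and its neighbour Tbc1d10c 2645 and 9068 bp. Mbnl1, a splicing regulator, had 423 bp in KO liver and 6039 bp in WT liver, but its window starting at 60500929 on chromosome 3 was wholly covered in both. Arhgef1, Cd52 and Il21r had 4766, 1987 and 1912 bp in KO liver and 9619, 6808 and 6718 bp in WT liver, and Arhgef1 shares its region with the neighbouring B cell gene Cd79a.

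Within 5000 bp, hepatocyte genes differed little as a list, and metabolic genes more often. Of 24 hepatocyte genes 1 was longer (Cebpb, 9037 bp in KO liver and 7807 bp in WT liver) and 1 shorter in KO liver (Nr5a2, 4292 and 5999 bp), with a median difference of 0 bp, against 11.7% longer and 5.7% shorter over all genes. Several, among them Ttr, Apoe and Foxa2, were covered over all 10001 bp of the window in both libraries, so no difference could show there. The hepatocyte counts depend on the window: 0 were longer and 0 shorter within 2000 bp, and 9 and 5 within 10000 bp. Of 34 metabolic genes 3 were longer (8.82%) and 5 shorter (14.7%), with a median of −10 bp. The widest difference was at Cyp2e1, a cytochrome P450 of pericentral hepatocytes, with 5466 bp in KO liver and 10001 bp in WT liver. Cyp1a2, another pericentral cytochrome P450, had 3812 bp in KO liver and 5544 bp in WT liver, and was named after its values were seen. Cyp8b1, a sterol hydroxylase of bile acid synthesis, had 3483 bp in KO liver and 6069 bp in WT liver, and Hpd, of tyrosine breakdown, 6198 and 8548 bp. Glul, the glutamine synthetase of pericentral hepatocytes, had 8573 bp in KO liver and 5568 bp in WT liver, and Asl, of the urea cycle, 4890 and 7221 bp. The regulators Hnf4a (1972 bp in KO liver and 2419 bp in WT liver) and Cebpa (7709 and 8301 bp) differed by less than 1000 bp.

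Chromatin genes differed about as often as all covered genes, of which 11.7% were longer and 5.7% shorter in KO liver. Of 21 SWI/SNF subunits, 2 were longer (9.52%) and 1 shorter (4.76%). The longer ones were Pbrm1 (7482 bp in KO liver and 5916 bp in WT liver) and Smarcd1 (2628 and 1494 bp), and the shorter one Smarca2 (5098 and 6440 bp). Of 20 covered genes for H3K4 methyltransferases, demethylases and their partners, 2 were longer (10%) and 1 shorter (5%). Setd1a, a methyltransferase, had 5215 bp in KO liver and 3120 bp in WT liver, and Rcor1, the partner of Kdm1a, 4339 and 6342 bp. The enhancer methyltransferases Kmt2c (5539 bp in KO liver and 5791 bp in WT liver) and Kmt2d (2904 and 3213 bp) and the demethylase Kdm1a (2456 and 2432 bp) differed by less than 1000 bp.

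Cell cycle lists had negative medians. Of 30 G1/S and replication genes none was at least 1000 bp longer and 2 were shorter, with a median difference of −252 bp and 22 of 30 shorter by any amount. The 2 shorter genes are 6.67% of the list, near the 5.7% over all genes, and 6314 of all 16100 covered genes were shorter by any amount. Mcm6, a subunit of the replicative helicase, had 2945 bp in KO liver and 5362 bp in WT liver, and Pcna, the sliding clamp, 4217 and 6275 bp. Of 30 G2/M genes 1 was longer (3.33%) and 3 shorter (10%), with a median of −304.5 bp. Over all covered genes 11.7% were longer and 5.7% shorter in KO liver. Bub1b, a spindle checkpoint kinase, had 2692 bp in KO liver and 1334 bp in WT liver, and the proliferation marker Mki67 had 2433 and 3673 bp. Ccnd1, cyclin D1, had 9159 bp in KO liver and 9047 bp in WT liver. Of 19 immediate early genes 4 were longer (21.1%) and none shorter, among them Myc (7137 bp in KO liver and 5640 bp in WT liver) and Fos (6211 and 4722 bp). That count depends on the window: 0 immediate early genes were longer within 2000 bp and 10 within 10000 bp.

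Lists of other cell types differed in both directions, and they were chosen with such values known. Over all covered genes 11.7% were longer and 5.7% shorter in KO liver. Of 18 covered lymphocyte genes 1 was longer (5.56%) and 10 shorter (55.6%) in KO liver, with a median difference of −1203 bp and a summed length of 24915 bp in KO liver and 55880 bp in WT liver. Of 22 endothelial genes 13 were longer (59.1%) and none shorter, with a median of 1165 bp and sums of 105113 bp in KO liver and 80096 bp in WT liver. Stab1 and Stab2, scavenger receptors of sinusoidal endothelium, had 5401 and 5761 bp in KO liver and 3518 and 3964 bp in WT liver. Fewer cells of a type and less mark per cell cannot be told apart in such bulk samples, and the part of cell makeup in the results above was not tested. Of 20 stellate cell genes 6 were longer and 2 shorter: Rgs5 had 3369 bp in KO liver and 271 bp in WT liver, Hand2 6537 and 3273 bp, and Colec11 700 and 3521 bp. Of 18 covered macrophage genes 6 were longer (33.3%) and 1 shorter (5.56%), and of 12 covered cholangiocyte genes 3 were longer. Of 7 covered neutrophil genes 1 was shorter (14.3%), Elane, with 2462 bp in KO liver and 5588 bp in WT liver.

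Some of these genes are marked at an end that is not their start. P2ry13, Hand2, Kcne4, Cyp8b1, Cd79a and Kmt2d were compared at the 3′ end. Prf1, the perforin gene, was longer in KO liver at its 3′ end (3059 bp against 1264 bp in WT liver), while its start window was wholly covered in WT liver only. Lyz2, a lysozyme of macrophages compared at its start, had 2998 bp in KO liver and 1714 bp in WT liver, but its start window was wholly covered in WT liver only.

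Of 16 female-biased liver genes 3 were longer (18.8%) and 8 shorter (50%) in KO liver, with a median difference of −983 bp. Of 12 covered male-biased genes 1 was longer (8.33%), Cyp2d9, with 7050 bp in KO liver and 5220 bp in WT liver, and 0 were shorter. Over all covered genes 11.7% were longer and 5.7% shorter. The counts depend on the window: 3 female-biased genes were longer and 3 shorter within 2000 bp, and 5 and 8 within 10000 bp. For male-biased genes the counts were 1 and 0 within 2000 bp, and 1 and 3 within 10000 bp. Hao2 had 5123 bp in KO liver and 3228 bp in WT liver, and Cux2, a female-specific repressor in mouse liver, 4085 and 2682 bp. Cyp3a41a and Cyp3a44 had 482 and 2301 bp in KO liver and 3782 and 4879 bp in WT liver, and both have near-identical copies. Xist, the transcript of the inactive X chromosome, had 6320 bp covered in KO liver and 6281 bp in WT liver, and the Y chromosome had 2 regions in KO liver and 1 in WT liver.

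**Figure D4:**
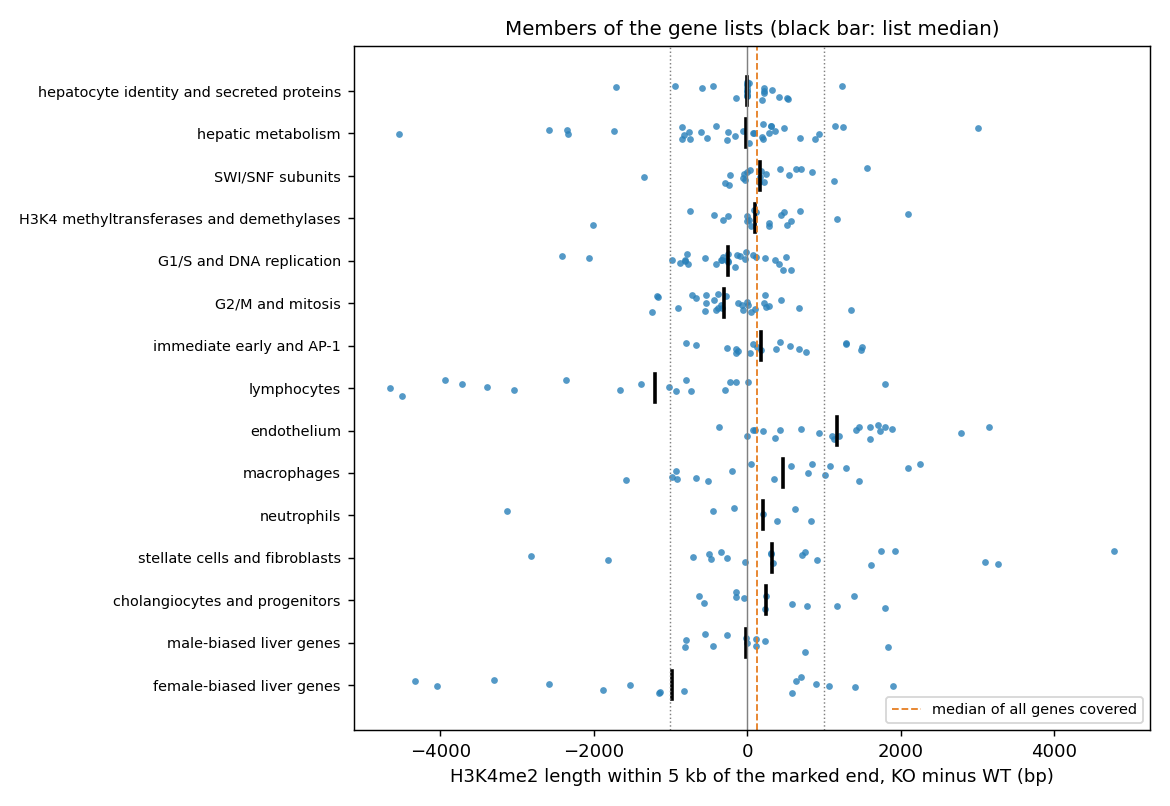
Difference in covered length within 5000 bp of the marked gene end, KO minus WT in bp (horizontal axis), for the covered genes of 15 lists (points, spread vertically for clarity), with the median of each list (black bar), the median of all covered genes (dashed line, 129 bp) and the 1000 bp limits (dotted lines). Endothelial genes lie mostly above 0 (median 1165 bp) and lymphocyte genes mostly below (median −1203 bp). Hepatocyte genes centre on 0, several of them because the whole window is covered in both libraries.

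The widest regions away from gene ends called in 1 genotype lay inside genes in 6 of 8 cases. Among all regions away from gene ends without a partner, 11857 of 19198 in KO liver and 7737 of 12732 in WT liver did so. In KO liver only, chr13:75717168-75722052 (4885 bp) lay inside a gene with Ell2 the nearest end, chr1:13451773-13455433 (3661 bp) lay outside genes, 77546 bp from an end of Ncoa2, chr2:71538503-71542088 (3586 bp) was 1320 bp from Dlx2, and chr5:89078323-89081337 (3015 bp) was nearest to Slc4a4. In WT liver only, chr1:133222344-133227443 (5100 bp) was nearest to Plekha6, chr6:87499575-87503949 (4375 bp) to Arhgap25, chr10:33857147-33861243 (4097 bp) to Sult3a1 and chr7:66117966-66122031 (4066 bp) to Chsy1. Their −log10 q-values were 1.79 to 3.03 in KO liver and 1.93 to 5.70 in WT liver. Genes with the most unpaired regions nearest to them included long ones: Wwox, of 913 kb, had 29 KO-only and 10 WT-only regions, Tshz2 24 and 4, and Prkce 28 and 16. Adgrl2, of 174 kb, had 22 KO-only and 14 WT-only regions. Foxp1 had 15 KO-only and 26 WT-only regions, Rora 10 and 18, and Sox5 9 and 15. These genes also held many shared regions: 34 KO and 34 WT at Wwox, 30 and 32 at Tshz2, 40 and 44 at Prkce. Shared regions numbered 44 and 47 at Adgrl2, 37 and 36 at Foxp1, 33 and 35 at Rora, and 33 and 33 at Sox5. Over all regions away from gene ends, 19198 of 57213 in KO liver and 12732 of 51423 in WT liver were unpaired.

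H3K27ac, an acetyl mark of active promoters and enhancers, lay over shared regions more often than over unshared ones. At gene ends, 82.7% of shared KO regions and 82.8% of shared WT regions overlapped an H3K27ac region of the same genotype, against 25.4% (22.7 to 28.2) of unshared KO regions and 34.4% (30.6 to 38.3) of unshared WT regions. Away from gene ends the shares were 63.2% and 68.3% for shared KO and WT regions, and 25.3% and 33.1% for unshared ones. Width moves with this: among regions from 500 to under 1000 bp at gene ends, 31.1% of shared and 33.3% of unshared KO regions and 35.3% and 40.1% of WT regions overlapped H3K27ac. Away from gene ends at that width the difference remained, at 49.7% and 31.5% in KO liver and 57.9% and 39.1% in WT liver. With H3K27ac of the other genotype, at any width, overlap away from gene ends was 68.3% for shared KO regions and 63.3% for shared WT regions. For unshared KO and WT regions it was 30.6% and 21.7% there, and 27.9% and 28.3% at gene ends. The H3K27ac library labelled WT had 0 bp covered at Xist and 10 regions on the Y chromosome, against 3536 bp and 2 regions in the KO one, and the part of this in the comparison was not tested. Both H3K4me2 libraries had Xist covered, so whether the WT libraries of the 2 marks came from animals of 1 sex is not known.

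Unshared regions with a −log10 q-value of at least 5 were few. Away from gene ends there were 198 in KO liver and 251 in WT liver, 1.77% and 2.11% of regions at that value, with median widths of 326 and 637 bp. Of these, 31 of the KO ones (15.7%, 10.9 to 21.5) and 112 of the WT ones (44.6%, 38.4 to 51.0) overlapped H3K27ac of the same genotype. Of the 198 in KO liver, 30 (15.2%) overlapped H3K27ac of WT liver, close to the share for KO liver. Of the 251 in WT liver, 49 (19.5%) overlapped H3K27ac of KO liver. At gene ends there were 21 such regions in KO liver and 11 in WT liver, with 3 and 6 over H3K27ac.

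**Figure D5:**
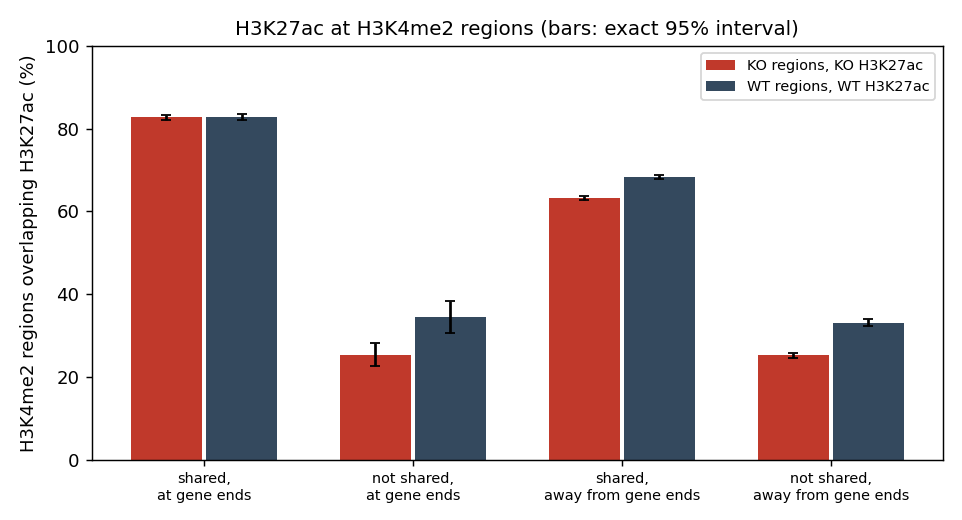
Percent of H3K4me2 regions that overlap an H3K27ac region of the same genotype (vertical axis) for shared and unshared regions at gene ends and away from them, in KO and WT liver, with 95% Clopper-Pearson intervals. Shared regions at gene ends reach 82.7% in KO liver and 82.8% in WT liver, and unshared regions lie between 25.3% and 34.4%.

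E2f4 is a cell cycle repressor that binds promoters, and the H3K4me2 regions that held its peaks lay mostly at gene ends. Peaks outside H3K4me2 regions are not covered by these counts. Of 13400 shared KO regions at gene ends, 215 and 591 held a peak of the first and second KO library, and of 13426 shared WT regions there, 1210 and 859 held a peak of the first and second WT library. Elsewhere the counts were 9 and 52 of 38015 shared KO regions and 166 and 96 of 38691 shared WT regions. Of 20194 unshared KO regions, 996 of them at gene ends, 0 held a peak of either KO library, which allows a share of up to 0.0149%. Of 605 unshared WT regions at gene ends 0 held a peak of either WT library, and of 12732 away from them 4 and 0 did. Peaks of the first and second WT library lay in 1 and 0 unshared KO regions at gene ends and in 7 and 2 elsewhere. Peaks of either KO library lay in 0 unshared WT regions. Most unshared regions lay away from gene ends, where shared regions also held few peaks, and shared and unshared regions were not compared at equal width. E2f4 itself had 6876 bp of H3K4me2 in KO liver and 5686 bp in WT liver.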

How the data were processed

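H3K4me2 ChIP-seq lists of 1 KO and 1 WT library were used, with H3K27ac and E2f4 lists of the same series. Per the submitters' processing notes, the build was mm10 and the tools included HOMER, MACS2 2.0.10.20131216, Picard and Bowtie2 2.2.3, without a role for any, and the use of inputs in calling is not stated there. A deposited list has for every region a fold enrichment (a ratio), −log10 p-values and −log10 q-values made by the authors, and the deposited score was not used. Fold and −log10 q-value served only within a list.

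Overlap was at least 1 bp. Gene ends came from RefSeq (GRCm38.p6), which gives no strand. Start sites came from the RefSeq promoter table, with 16456 of 20661 genes (79.6%) and none on chromosome 18. The marked end is the end with more H3K4me2 within 2000 bp over both libraries. A check of CG content over whole sets of genes was void, since under 80% of members have a sequence. Python 3.11.15, numpy 2.4.6, pandas 2.3.3, scipy 1.17.1 and matplotlib 3.10.9 were used, and functions were tested on simulated data.

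Members and lists (15 lists, 323 entries, 322 on autosomes) were chosen with earlier results of these data known. Genes named are, by covered length within 5000 bp, those with the most in 1 genotype and none in the other (8 each), the largest gains and losses (6 each), the broadest in both (6), up to 4 per list in each direction, the widest distal regions of 1 genotype (4 each), genes with the most such regions (6 each) and a fixed set of regulators. Not every gene that this rule names is reported here.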

Additional observations from a re-analysis of the deposited data

Results flagged for a closer look

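Signal lay outside the autosomes, in data not used for the comparisons. Within 5000 bp of an end of Xist, 6320 bp was covered by H3K4me2 in KO liver and 6281 bp in WT liver. For H3K27ac 3536 bp was covered there in KO liver and 0 bp in WT liver, and the WT library had 10 regions on the Y chromosome against 2 in the KO library.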

How the results depend on the processing

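With both lists limited to a −log10 q-value of at least 5, shares overlapping the other genotype were 85.6% in KO liver and 84.1% in WT liver for all regions, 96.0% and 97.0% at gene ends, and 75.3% and 72.2% away from them, so that the order of KO and WT turned for all regions and away from gene ends, and the median log2 width ratio of pairs away from gene ends was 0.069. With lists of equal length the shares were 76.0% in KO liver and 77.4% in WT liver for all, 94.5% and 95.1% at gene ends, and 71.0% and 72.5% away. With regions under 1000 bp apart merged they were 73.4% and 80.6%, 94.0% and 96.2%, and 67.8% and 76.0%. With an overlap of at least 50% of the shorter region they were 68.9% and 76.4%, 92.3% and 94.9%, and 63.0% and 71.4%. At gene ends, a window of 500 bp gave 94.9% in KO liver and 96.8% in WT liver, and one of 5000 bp gave 83.9% and 89.1%. Genes at least 1000 bp longer and shorter in KO liver numbered 491 and 282 within 2000 bp, and 3064 and 1494 within 10000 bp. Lymphocyte genes shorter in KO liver numbered 7 within 2000 bp and 13 within 10000 bp, and endothelial genes longer 6 and 19. Over all lists and alternatives, 36 list counts moved by more than 1.5 times and 54 did not. Of the main values, 43 moved beyond their interval or, for counts, by more than 1.5 times, and 33 did not. The cause of these moves was not tested.

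A pair of alternatives was chosen after seeing the data. Regions within 1000 bp of a RefSeq start site were shared in 96.2% of cases in KO liver and 97.7% in WT liver. With a −log10 q-value of at least 5, H3K27ac of the same genotype lay over 89.4% of shared KO regions and 89.5% of shared WT regions at gene ends, 14.3% and 54.5% of unshared ones there, 78.8% and 79.0% of shared ones away from gene ends, and 15.7% and 44.6% of unshared ones. No paired analysis was possible because each genotype has 1 H3K4me2 library and the results come from no test. Depth is unknown, which limits any reading of unpaired narrow regions.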
